A study of Bos taurus with 8 samples.

Results

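The genes described here are 9 regulators of programmed cell death and targets of the transcription factor p53, measured in cells labelled as primary bovine Müller glia. They are ZMAT3, BCL2, TNFRSF10D, APAF1, BAX, CDKN1A, MDM2, FAS and BCL2L1, chosen by name with earlier results of these data known. Every probe that the scanner files give one of these names was taken. That gave 19 probes of 51282 on the array and 9 genes of 16914 named genes. All 19 probes were well above background on all 8 arrays, so all 19 are among the 31546 probes that were tested.

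The arrays came from cells treated with the HIV-1 protein TAT (100 ng/ml, 3 arrays), cells treated with the HIV-1 envelope protein gp120 (60 ng/ml, 3 arrays) and control cells (2 arrays). All were bovine cells from the eye, grown for 18 to 21 days in DMEM and collected at 24 h, and each RNA was read with 1 dye on 1 array. The replicates carry the letters A, B and C for TAT and for gp120, and A and B for the controls. The treatment text is the same for every sample, controls included, and names both proteins, so the groups are those of the titles. Nothing says whether letters mark separate animals or cultures, so the p-values cover only the scatter among these arrays, which may be technical. The RNA extraction notes call the cells astrocytes. The labels name no vehicle for the controls and no sex or age.

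In mammalian cells, programmed death can start at the mitochondrion or at the cell surface. BAX opens the outer mitochondrial membrane, BCL2 and BCL2L1 hold it closed, and APAF1 assembles the caspase-activating apoptosome on cytochrome c that leaks out. FAS passes a death signal from its ligand at the surface, while human TNFRSF10D is a decoy that binds the death ligand TRAIL without a working death domain. p53 raises transcription of CDKN1A (p21, which halts the cell cycle), MDM2 (the ligase that removes p53), BAX, FAS, APAF1 and ZMAT3, an RNA-binding zinc-finger protein. Müller glia are the main supporting glia of the retina, and they are more resistant to injury than the neurons they surround.

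The probes are 60-base oligonucleotides, and they are the objects that were measured. Those below lie in or next to coding sequence, and not every such probe is shown. All are written 5′ to 3′ in lower case. Positions are those in the files for the build HGSC Btau_3.1. For ZMAT3, A_73_119029 is at chr1:90376814-90376873 on the plus strand and runs over the stop codon, and A_73_P464441 spans 2359 bases at chr1:90374329-90376687. For BCL2, A_73_P108956 is at chr24:64012021-64012080, minus strand. For BAX, A_73_P036793 is at chr18:55543185-55543244, plus strand. For CDKN1A, A_73_P100681 is at chr23:10911452-10911511, plus strand, and 80% of its bases are G or C. For MDM2, A_73_P090534 is at chr5:48577798-48577857 and A_73_P456709 at chr5:48578201-48578260, both minus strand.
ZMAT3 A_73_119029: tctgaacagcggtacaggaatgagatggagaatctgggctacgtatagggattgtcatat
ZMAT3 A_73_P464441: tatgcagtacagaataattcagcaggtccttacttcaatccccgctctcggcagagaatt
BCL2 A_73_P108956: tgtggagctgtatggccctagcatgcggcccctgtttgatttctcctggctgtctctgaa
BAX A_73_P036793: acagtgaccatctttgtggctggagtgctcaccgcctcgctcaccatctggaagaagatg
CDKN1A A_73_P100681: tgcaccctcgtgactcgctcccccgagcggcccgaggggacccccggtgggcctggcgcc
MDM2 A_73_P090534: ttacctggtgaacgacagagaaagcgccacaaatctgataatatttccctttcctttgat
MDM2 A_73_P456709: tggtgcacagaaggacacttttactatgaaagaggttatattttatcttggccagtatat

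The other probes were placed in the same build as follows. TNFRSF10D has A_73_P038691 at chr8:73378595-73378654, A_73_P238380 at chr8:73378938-73378997, A_73_P209752 at chr8:73378949-73379008 and A_73_P086586 at chr8:73386630-73386689, all on the minus strand. A_73_P238380 and A_73_P209752 share 49 bases of position, so they cover nearly the same stretch and are not independent, though their values differed. APAF1 has A_73_P090971 at chr5:67634191-67634250 and A_73_109137 at chr5:67589365-67589423, plus strand, the second printed on 2 spots that were averaged. CDKN1A also has A_73_102040 at chr23:10914759-10914818, which holds the polyadenylation signal AATAAA. MDM2 also has A_73_116639, placed at chr5:48573168-48573192 for only 25 of its 60 bases. FAS has A_73_105727 at chr26:11164450-11164509, plus strand. BCL2L1 has A_73_119599 at chr13:62076690-62076749, A_73_P330086 at chr13:62077619-62077678 and A_73_P100546 at chr13:62126846-62126905, minus strand. The brightest probe of a gene over the 8 arrays is called its main probe below, and for genes with 1 probe it is that probe.

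Across the 8 arrays, 55.5% to 64.6% of spots were well above background and 0 were saturated. TAT B, TAT C, gp120 B and gp120 C lay in row 2 of the slide and TAT A, gp120 A and both controls in row 1. gp120 B and C were read in another scan, at a detector voltage of 471, than the other 6 arrays, at 431. The arrays of letter A stood apart from the rest: the first principal component of the tested probes held 47.2% of the variance and placed TAT A, gp120 A and control A on one side and the other 5 on the other. Of 14 Müller glia markers on the array, 11 were well above background on all 8 arrays, but RLBP1 was on only 2, KCNJ10 on 1 and CA14 on 0. Of microglia and macrophage markers 11 of 12 were, of fibroblast markers 9 of 10, of pericyte markers 8 of 8, of endothelial markers 5 of 6, and of astrocyte, pigment epithelium and neuron markers 3 of 7 each, with GFAP on 2 arrays. Levels here come from whole cultures, so fewer cells of a type and less RNA per cell cannot be told apart.

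Levels are log2 processed signal minus the array's 75th percentile, and differences between groups are on the same log2 scale. The first question is what TAT did to these genes. No member probe passed an adjusted p of 0.05 in limma for TAT minus control, nor did any of the 31546 probes (0% called). At an unadjusted p under 0.05, 1 member stood among 434 probes (1.38% of all). The differences leaned to lower values: 16 of the 19 member probes averaged lower in TAT-treated cells than in controls, against 53.5% of all tested probes, and the members' median difference was -0.36, against -0.02 over all. The count was 13 to 17 under the alternative settings, with 13 where the slide row was a block and 15 without the letter A arrays. Probes of the same gene are not independent. The members were chosen with earlier results of these data known. Here and below, their counts beside the shares of all probes are therefore descriptions and test nothing. In 5 of the 19 all TAT arrays lay below both control arrays (8.69% of all probes did), and in 0 of the 19 did they all lie above (5.45% of all probes). The summed level of fibroblast markers was 216 to 297 in TAT arrays, against 161 to 165 in controls, where the level of 1 is the array's 75th percentile, and its part in these differences was not tested.

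For gp120 the question was the same, and the comparison shares its 2 control arrays with that of TAT, so the counts are not independent of each other. No member probe and no probe at all passed the adjusted threshold in limma for gp120 minus control (0% called). At an unadjusted p under 0.05, 3 members stood among 1336 probes (4.24% of all). Again 16 of the 19 averaged lower in gp120-treated cells, against 49.9% of all probes, with a median of -0.48, against 0.00. The count was 12 to 17 under the alternatives, and 12 where the scan was a block, which leaves gp120 A alone to set against the controls. In 4 of the 19 all gp120 arrays lay below both controls (7.74% of all probes), and in 0 of the 19 above (7.9%). The fibroblast marker sum in gp120 arrays was 157 to 202.

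**Figure D1:**
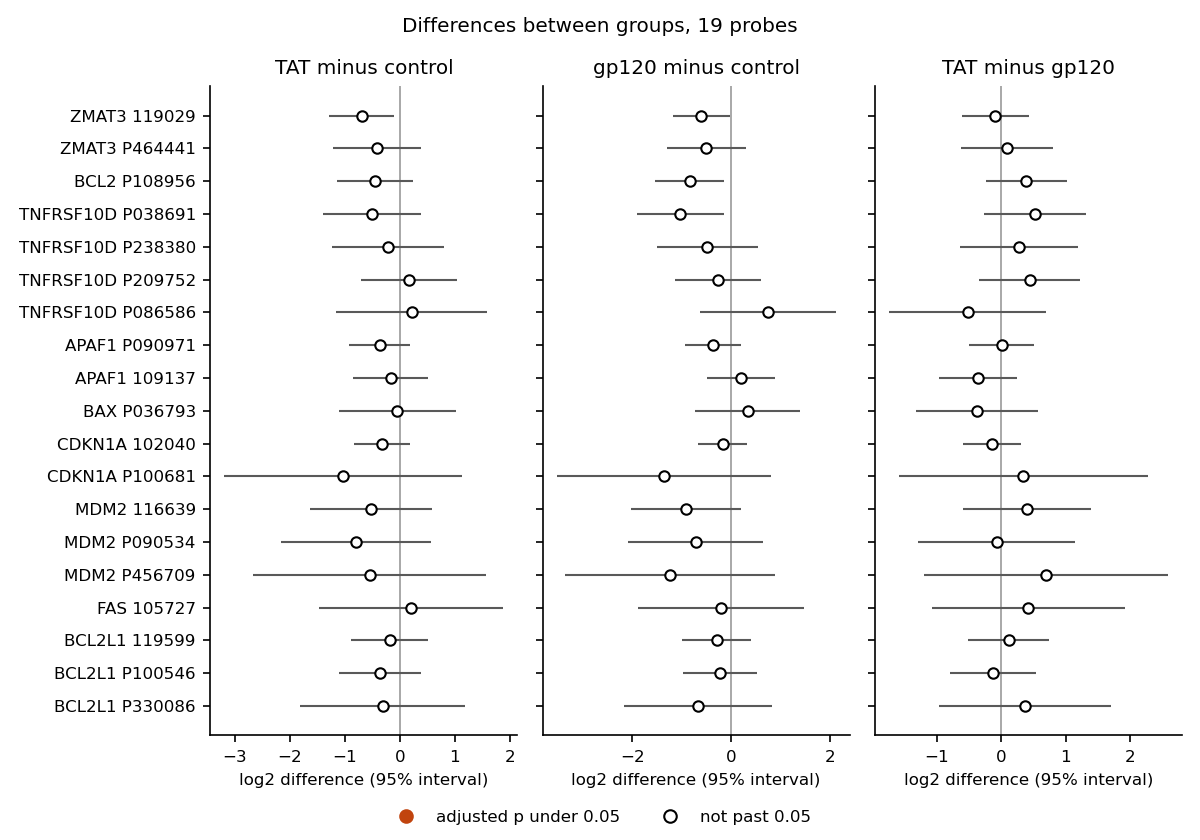
Differences in log2 level between groups for the 19 member probes, as limma estimates with 95% intervals, for TAT minus control, gp120 minus control and TAT minus gp120. Open points did not pass an adjusted p of 0.05, which holds for every probe shown, and 16 of 19 points lie below 0 in both comparisons with control.

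ZMAT3 was the only member whose 2 probes both lay below both controls on all 6 treated arrays. With the single BCL2 probe that made 3 of 19 member probes, against 3.07% of all probes, and 0 of 19 lay above both controls on all 6 (1.74%). The main ZMAT3 probe A_73_119029 read -1.86, -2.22 and -2.38 in TAT A, B and C and -1.79, -2.17 and -2.22 in gp120 A, B and C, against -1.41 and -1.51 in control A and B. The 2 controls were the highest of the 8 arrays and lay 0.10 apart. The difference was -0.69 ± 0.25 (SE) for TAT, which is 0.618 of the control level, with an unadjusted p of 0.0254 and an adjusted p of 1 in limma. For gp120 it was -0.60 ± 0.25, with an unadjusted p of 0.0445 and an adjusted p of 0.966 in limma. With the slide row as a block the differences were -0.41 for TAT and -0.32 for gp120, and within row 1 they were -0.40 and -0.33. They ranged from -0.84 to -0.34 for TAT and from -0.74 to -0.27 for gp120 over all alternatives. The second ZMAT3 probe, A_73_P464441, lies upstream in the gene and read -3.41, -3.79 and -3.46 in TAT arrays and -3.29, -3.33 and -4.32 in gp120 arrays, against -3.04 and -3.23 in controls. Its differences were -0.42 for TAT and -0.51 for gp120.

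BCL2, the founding survival protein of its family, was lower on all 6 treated arrays by its single probe. It read 1.99, 2.05 and 1.68 in TAT arrays and 1.98, 1.11 and 1.46 in gp120 arrays, against 2.18 and 2.54 in controls. The 2 lowest arrays were gp120 B and gp120 C, the pair with a scan of its own. The gp120 difference was -0.84 ± 0.30 (SE), 0.557 of the control level, with an unadjusted p of 0.0236 and an adjusted p of 0.966 in limma. It was -0.38 where the scan was a block or gp120 A stood alone, and -0.57 with the slide row as a block. The TAT difference was -0.45 ± 0.30, with -0.18 where the row was a block and -0.28 without control B.

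BCL2L1 encodes the related survival protein BCL-xL. Its main probe A_73_119599 read 4.30, 3.68 and 3.62 in TAT arrays and 4.10, 3.57 and 3.59 in gp120 arrays, against 4.21 and 3.87 in controls. All 3 groups overlapped, and in every group the letter A array was the highest. The differences were -0.18 for TAT and -0.29 for gp120, and both turned positive with the row as a block, to 0.21 and 0.10. Without control A they were -0.008 and -0.12, and without control B -0.35 and -0.46. A_73_P330086 gave -0.31 for TAT and -0.67 for gp120, each with an SE of 0.65. The probe A_73_P100546, in coding sequence far upstream, read -2.35, -2.43 and -2.64 in TAT arrays and -2.90, -2.01 and -2.12 in gp120 arrays, against -1.86 and -2.38 in controls, with differences of -0.36 and -0.22.

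BAX, the pore-forming death effector, had opposite signs in the letter A and letter B pairs. Its level did not pass between letters (adjusted p = 0.243 in limma's F test). It read 1.75, 0.54 and 0.50 in TAT A, B and C and 1.89, 1.1 and 0.92 in gp120 A, B and C, against 0.76 and 1.18 in control A and B. TAT A and gp120 A were the highest arrays by far, while control A was below control B. TAT minus control was therefore 0.99 between the letter A arrays and -0.64 between the letter B arrays, and gp120 minus control was 1.13 and -0.08. The fitted differences were -0.04 for TAT and 0.33 for gp120, and neither passed in limma (adjusted p = 1 and 0.968). With the row as a block they were 0.66 and 1.04, and without the letter A arrays -0.67 and -0.17, so the sign of both followed the arrays used.

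APAF1 was slightly lower in the treated groups by its main probe. A_73_P090971 read -1.82, -1.86 and -1.60 in TAT arrays and -1.51, -2.01 and -1.78 in gp120 arrays, against -1.24 and -1.55 in controls. All TAT arrays were below both controls, and gp120 A overlapped with them. The differences were -0.36 for TAT and -0.37 for gp120, each with an SE of 0.24. Without control A they were -0.21 and -0.22. The other probe, A_73_109137, gave -0.16 for TAT and 0.19 for gp120, so the 2 probes differ in sign for gp120.

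FAS, the death receptor, overlapped between all 3 groups. It read 1.58, 2.94 and 2.61 in TAT arrays and 0.94, 3.06 and 1.86 in gp120 arrays, against 1.34 and 3 in controls. The 3 letter A arrays were the lowest and the 3 letter B arrays the highest, whatever the group. The TAT difference was 0.20, with a 95% interval of -1.47 to 1.88, and the gp120 difference was -0.22, from -1.89 to 1.46. The FAS differences changed sign when control arrays were left out: TAT minus control was -0.62 without control A and 1.03 without control B, and gp120 minus control was -1.04 and 0.61.

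The 4 TNFRSF10D probes did not read alike. The files describe the bovine gene as TNFRSF10D-like, so the decoy role is that of the human gene. The main probe A_73_P038691 read 2, 2.5 and 2.54 in TAT arrays and 2.23, 1.46 and 1.77 in gp120 arrays, against 3.38 and 2.32 in controls. All gp120 arrays were below both controls, and TAT B and C were above control B. For gp120 the difference was -1.03 ± 0.38 (SE), 0.49 of the control level, with an unadjusted p of 0.0277 and an adjusted p of 0.966 in limma. It was -1.56 without control B and -0.50 without control A, which alone read above 3. For TAT the difference was -0.50, and 0.03 without control A, and the other probes gave -0.21 (A_73_P238380), 0.17 (A_73_P209752) and 0.22 (A_73_P086586). At A_73_P086586, upstream in coding sequence, the gp120 difference was 0.74, at A_73_P209752 it was -0.27 and at A_73_P238380 -0.48. Over the 8 arrays the Pearson correlation with the main probe was 0.185 for A_73_P238380 and -0.58 for A_73_P086586, while the 2 overlapping probes correlated at 0.78. The arrays share all processing, and these are descriptions.

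CDKN1A, the p53 target that encodes p21, was bright and steady at its 3′ end. A_73_102040 read 5.03, 5.02 and 5.08 in TAT arrays and 5.11, 5.24 and 5.22 in gp120 arrays, against 5.59 and 5.14 in controls. All TAT arrays were below both controls and below all gp120 arrays, by small amounts. The differences were -0.32 ± 0.22 (SE) for TAT and -0.18 ± 0.22 for gp120. Without control A they were -0.10 and 0.05, and without control B -0.55 and -0.40. The coding probe A_73_P100681, 3307 bases upstream, spread far more, with -0.32, -1.38 and -2.52 in TAT arrays and -0.31, -1.81 and -3.13 in gp120 arrays, against 0.49 and -1.25 in controls. There the order within each group was A, B, C from high to low, and the differences of -1.03 for TAT and -1.37 for gp120 had an SE of 0.93, larger than at any other member probe.

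MDM2, the p53 ligase, averaged lower in both treated groups at all 3 probes. A_73_116639 read 2.96, 2.32 and 2.71 in TAT arrays and 3.18, 1.95 and 1.67 in gp120 arrays, against 3.60 and 2.77 in controls. Control A was the highest of all, and the groups overlapped. The differences were -0.52 for TAT and -0.92 for gp120, the second with an unadjusted p of 0.0925 in limma. With the row as a block they were 0.08 and -0.32, and the gp120 difference was -0.01 within scan 2. Without control A they were -0.11 and -0.51, and without control B -0.94 and -1.33. The coding probes A_73_P090534 and A_73_P456709 gave -0.79 and -0.55 for TAT and -0.72 and -1.24 for gp120, with SEs of 0.59 and 0.92. The controls have no letter C array, so letters are unbalanced in these differences. With the letter as a block they were -0.48 and -0.17 for TAT and -0.41 and -0.87 for gp120.

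**Figure D2:**
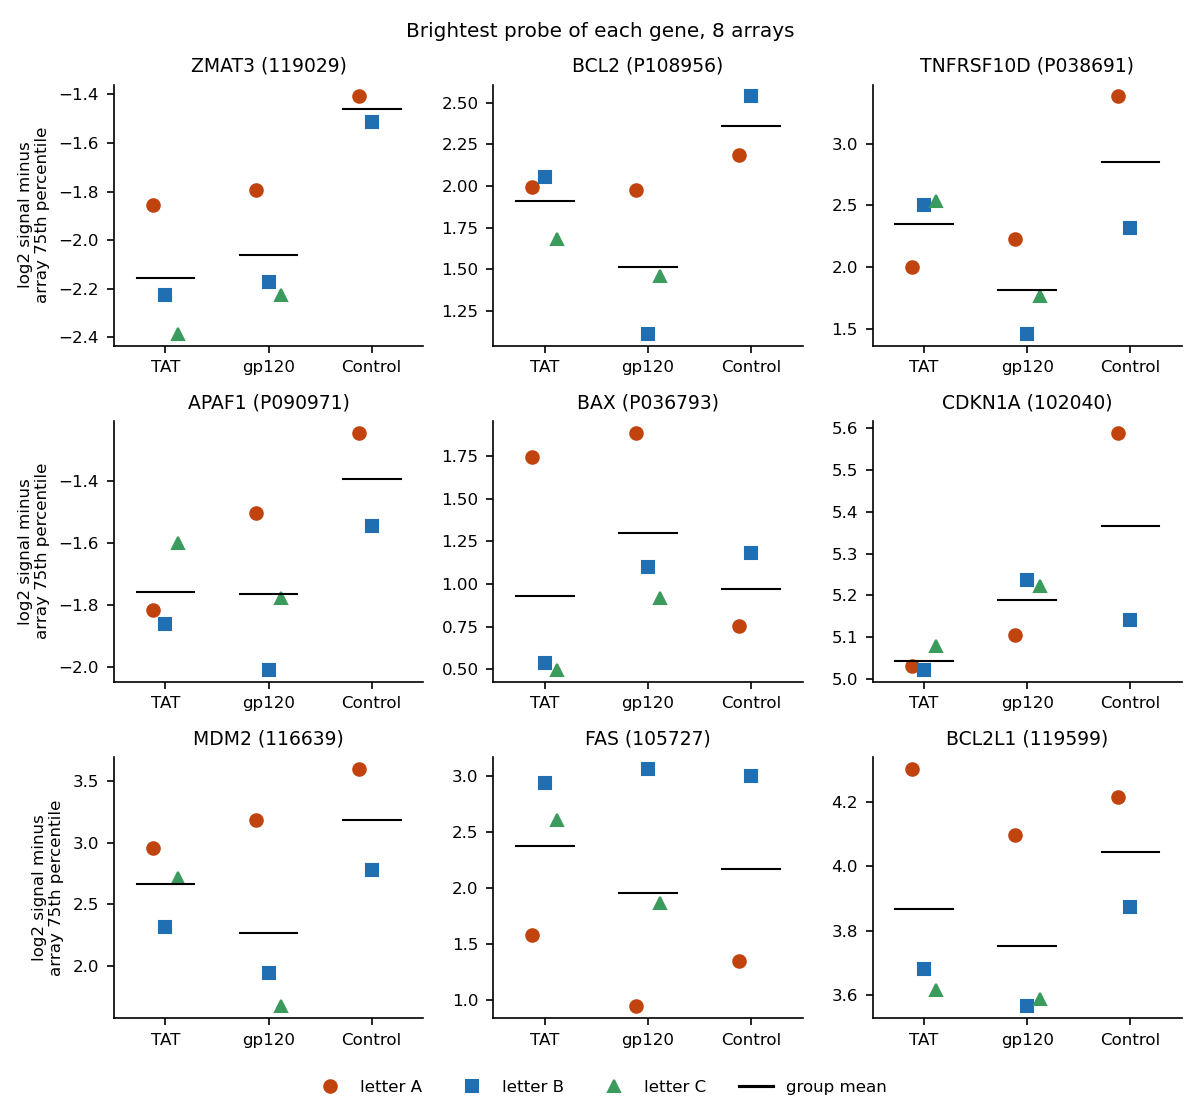
Log2 level of the main probe of each of the 9 genes on the 8 arrays, by group (TAT, gp120, control), with letters as colours and shapes and the group mean as a bar; axes differ between panels and levels are not comparable between genes. For ZMAT3 and BCL2 all 6 treated arrays lie below both controls, while the letter A array is the lowest for FAS and the highest for BCL2L1 in every group.

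No member probe passed the test between TAT-treated and gp120-treated cells. For TAT minus gp120, 0 of 31546 probes passed the adjusted threshold in limma (0% called), and 0 of the 19 members were among the 1245 at an unadjusted p under 0.05 (3.95%). Means were lower with TAT in 7 of 19 member probes, against 54.5% of all probes. The intervals leave room for sizeable differences: BCL2 was 0.39 higher with TAT (95% interval -0.23 to 1.02), the TNFRSF10D main probe 0.53 higher (-0.26 to 1.32) and BAX 0.37 lower (interval of the difference -1.32 to 0.57). Only the 3′ CDKN1A probe had all TAT arrays below all gp120 arrays (4.6% of all probes did), by -0.14, and 0 member probes had all of them above (3.33%). The doses of the 2 proteins differ.

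Arrays with the same letter deviated together across the tested probes, so the letter was also used as a block. After subtraction of group means, correlations were 0.323 to 0.703 in the 7 same-letter pairs of arrays from different groups. In 14 pairs of different letters they were -0.592 to 0.403, so the ranges overlapped. Control B was at 0.323 with TAT B and 0.326 with gp120 B, but at 0.403 with TAT C and 0.364 with gp120 C. With only 2 controls, the subtraction makes control A and control B exact opposites, so these pairs are not independent. With the block, no member and no other probe passed in any of the 3 comparisons, and the number of probes at an unadjusted p under 0.05 was 1311 for TAT (4.16%), 2335 for gp120 (7.4%) and 3211 for TAT minus gp120 (10.2%). Of the members 2, 6 and 0 were among them. The blocked differences of ZMAT3 were -0.60 ± 0.19 (SE) for TAT and -0.50 ± 0.19 for gp120, those of BCL2 were -0.38 and -0.77, and those of the upstream CDKN1A probe were -0.40 and -0.74. TNFRSF10D A_73_P238380 had the smallest unadjusted p among members, 0.007 for gp120 at -0.77, with an adjusted p of 0.652 in limma. In the same fit its overlapping probe A_73_P209752 was at -0.40, the main TNFRSF10D probe at -1.06 and A_73_P086586 at 0.48. BAX was at 0.16 for TAT with the block, against -0.04 without it.

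Within pairs of the same letter, 12 of the 19 member probes were lower with TAT than in control in both the A and the B pair, against 28.6% of all probes. For gp120 the count was also 12 of 19, against 24.8%. ZMAT3 (both probes), BCL2, APAF1's main probe, TNFRSF10D A_73_P238380, the upstream CDKN1A probe and 2 MDM2 probes, A_73_116639 and A_73_P090534, were lower in all 4 of those pairs, 8 of 19 against 12.5% of all probes. The 4 pairs use only 2 control arrays. For ZMAT3's main probe the 4 differences were -0.45 and -0.71 for TAT and -0.39 and -0.66 for gp120. For MDM2 A_73_116639 they were -0.64 and -0.46 for TAT and -0.42 and -0.83 for gp120. Between the proteins, 3 of 19 were lower with TAT in all 3 pairs (20.3% of all probes) and 3 higher (13.5%).

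**Figure D3:**
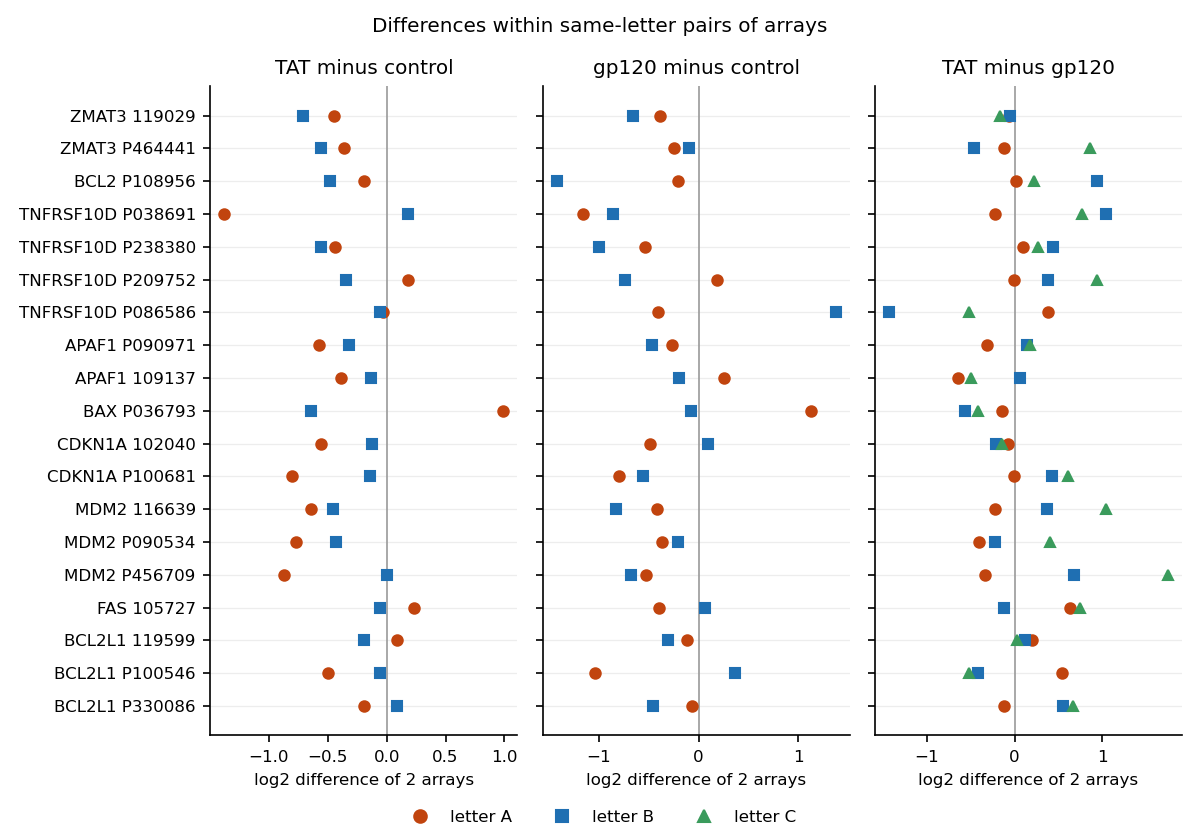
Log2 difference between 2 arrays of the same letter for each of the 19 member probes, for TAT minus control (letters A and B), gp120 minus control (A and B) and TAT minus gp120 (A, B and C). ZMAT3 and BCL2 lie below 0 in every pair with control, and BAX lies at 0.99 and 1.13 in the A pairs and at -0.64 and -0.08 in the B pairs.

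Between letters, some member probes passed. With the group in the fit, 6 of 19 member probes passed an adjusted p of 0.05 in limma's F test over letters, against 12.8% of all tested probes (4037). By the main probe alone, 1 of the 9 genes (FAS) passed, which is 11.1%, against 13.6% of all named genes. Between letters B and A, 5 passed (11.2% of all), of which 4 were lower in B (5.42%) and 1 higher (5.75%). Between C and A, 5 passed (13.5%), of which 4 were lower in C (6.97%) and 1 higher (6.56%), and between C and B 0 passed (0.992%), with 3 at an unadjusted p under 0.05, against 15.7% of all probes. The 6 were FAS, 2 probes of MDM2 and 1 each of CDKN1A, BCL2L1 and TNFRSF10D.

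FAS was higher in letter B than in letter A by 1.71 ± 0.21 (SE), with an adjusted p of 0.0082 in limma. The difference was 1.36 within TAT, 2.12 within gp120 and 1.66 within the controls. FAS was picked on these same arrays, so the shared sign is a description. Letter C was 0.96 above letter A, which did not pass (adjusted p = 0.0527 in limma).

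The upstream CDKN1A probe A_73_P100681 was lower in B by -1.43 ± 0.20 (SE) and in C by -2.59 ± 0.23, with adjusted p of 0.0113 and 0.00329 in limma. The 3′ CDKN1A probe differed by -0.11 and 0.00 between the same letters, so the 2 probes of this gene differed unequally between letters. MDM2 A_73_P090534 was lower by -1.03 in B and -1.44 in C (adjusted p = 0.0301 and 0.0171 in limma), and A_73_P456709 by -1.78 and -2.02 (0.0336 and 0.0328). The 3′ MDM2 probe ran the same way, at -0.90 and -0.86, without passing. BCL2L1 A_73_P330086, 929 bases upstream of the main probe, was lower by -1.18 and -1.59 (adjusted p = 0.0196 and 0.0121 in limma), and the main probe by -0.50 and -0.56 without passing. The third BCL2L1 probe, A_73_P100546, differed by 0.09 in B and 0.09 in C. TNFRSF10D A_73_P238380 went the other way, 0.56 higher in B without passing and 1.14 higher in C (adjusted p = 0.0186 in limma). Its overlapping probe A_73_P209752 was higher by 0.52 and 0.65 and A_73_P086586 by 0.84 and 1.21, without passing. The main TNFRSF10D probe had the opposite sign, at -0.44 and -0.12.

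The letters cannot be fully separated from the slide and the scan. All letter A arrays lay in row 1, which besides them held only control B. Within that row, control B minus control A was 1.66 for FAS, -1.73 for the upstream CDKN1A probe, -1.19 and -2.02 for the 2 MDM2 probes, -1.15 for BCL2L1 A_73_P330086 and 0.75 for TNFRSF10D A_73_P238380, each from 2 arrays and with no test. With the row as a block, 0 of 19 member probes passed, and 179 of all probes. Within scan 2 alone 0 members passed, and with the scan as a block 1 did. Leaving out single arrays left 1 to 5 members: 1 without control A, control B or gp120 A, 2 without gp120 C, and 3 without TAT B. The signs of these 6 probes were the same in all of these fits. The probes were picked on the same arrays, so their signs here and in control B minus control A are no separate support. The summed level of pericyte markers was 270 to 422 in B arrays and 197 to 248 in C arrays, against 112 to 196 in A arrays. Pigment epithelium markers summed to 111 to 203 in B and 47.1 to 47.9 in C, against 80.1 to 92.7 in A. That sum is nearly all TTR and says little of the other markers on the list. PMEL was higher in C (-1.56 and -1.23) than in A (-1.96 to -1.80), and LRAT overlapped between them. Endothelial markers summed to 3.37 to 4.34 in B and 2.66 to 4 in C, against 4.94 to 5.22 in A. That sum follows VWF, its brightest gene. TEK was also lower in C (-3.69 and -3.74) than in A (-3.11 to -2.83). KDR was higher in C (-1.24 and -1.27) than in A (-3.41 to -2.17), as was PECAM1 (-1.93 and -1.82, against -3.88 to -2.86). Retinal neuron markers summed to 2.54 to 6.05 in B and 2.07 to 3.11 in C, against 4.35 to 5.81 in A. There TUBB3 was higher in C (-0.57 and -0.07) than in A (-2.03 to -1.12). The part of these marker levels in the letter differences was not tested.

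**Figure D4:**
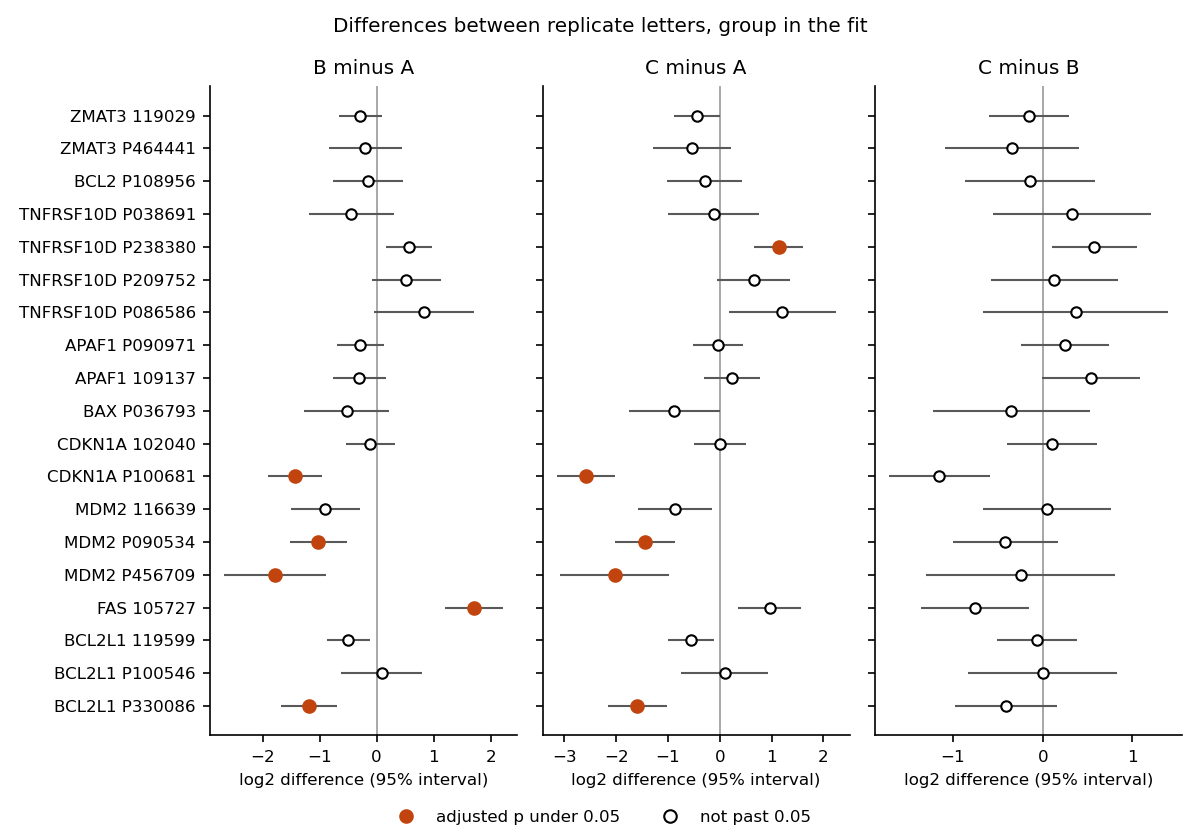
Log2 differences between replicate letters for the 19 member probes from limma with the group in the fit, with 95% intervals; filled points passed an adjusted p of 0.05. Filled points lie below 0 for CDKN1A, MDM2 and BCL2L1 probes and above 0 for FAS (B minus A) and TNFRSF10D (C minus A).

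Because labelling starts from the poly(A) tail, the position of a probe along its gene was set beside its value. Each upstream probe was taken relative to the most downstream probe of its gene on the same array, minus its mean over the 8 arrays. For CDKN1A this difference was -0.59 to 0.07 in B arrays and -1.89 to -1.14 in C arrays, against 1.04 to 1.35 in A arrays. For MDM2 A_73_P456709 it was -0.47 to 0.00 in B and -0.88 to -0.17 in C, against 0.50 to 0.73 in A. For BCL2L1 A_73_P330086 it was -0.36 to 0.07 in B and -0.84 to -0.20 in C, against 0.32 to 0.64 in A. The 3 upstream TNFRSF10D probes went the other way. A_73_P238380 was at -0.14 to 0.59 in B and 0.36 to 0.85 in C, against -1.22 to -0.29 in A. For A_73_P209752 and A_73_P086586 the C arrays were at 0.28 to 0.46 and 0.13 to 1.41, all above the A arrays, and the B arrays overlapped with A. MDM2 A_73_P090534 was at -0.68 to -0.04 in C, below 0.08 to 0.26 in A, and its B arrays overlapped with both. The letters overlapped for the farthest upstream BCL2L1 probe, the upstream ZMAT3 probe and A_73_109137 of APAF1. Over 5788 other genes with probes at 2 positions, the median was -0.05 to 0.12 in B arrays and -0.04 in both C arrays, against 0.01 to 0.08 in A arrays. The quartiles of single genes reached -0.40 and 0.42, so values for 1 gene spread far more than these medians. The part of RNA quality in the member values was not tested.

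**Figure D5:**
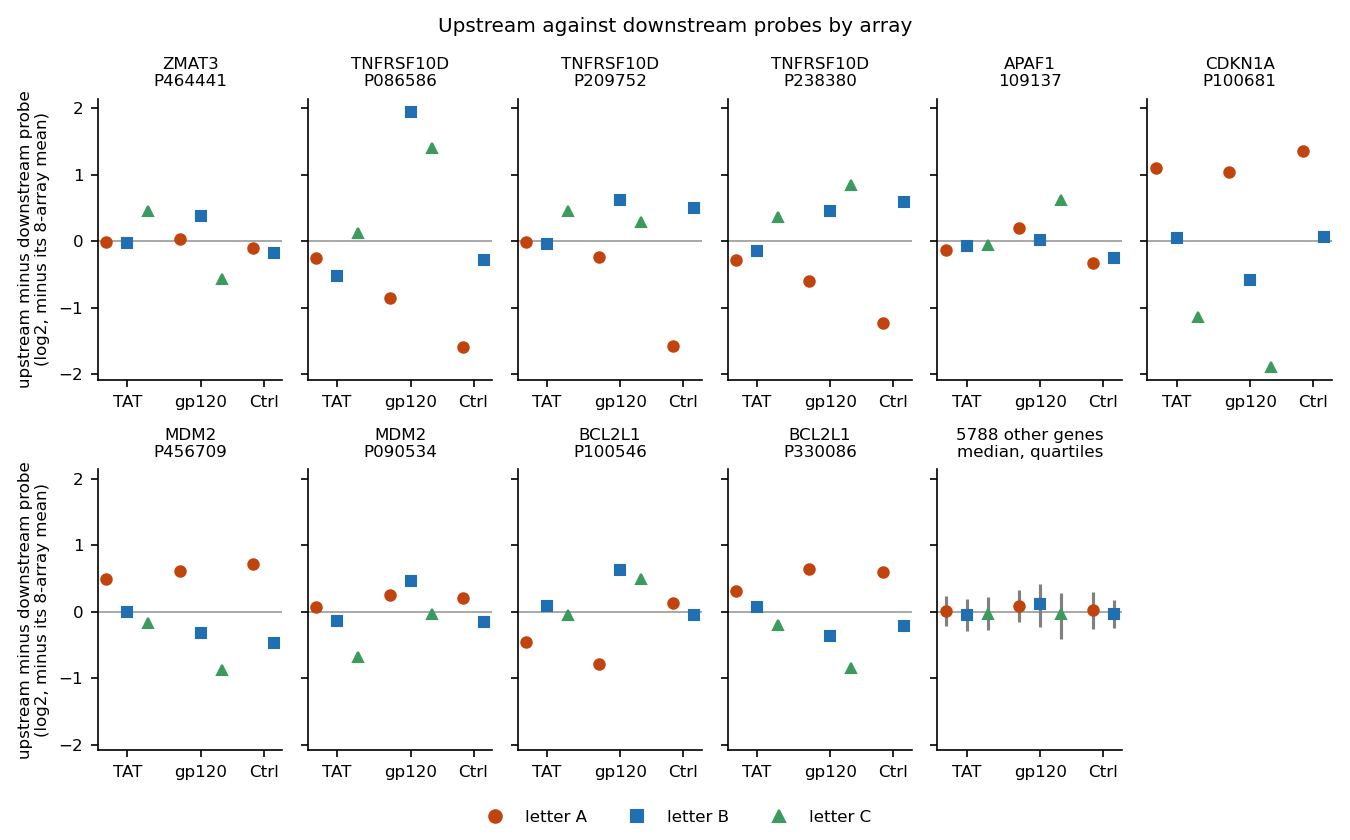
Upstream minus most downstream probe of the same gene on each array (log2, minus the mean over 8 arrays) for the 10 upstream member probes, and the median with quartiles over 5788 other genes, by group with letters as colours and shapes. Letter A lies highest for CDKN1A, at 1.04 to 1.35, and lowest for TNFRSF10D A_73_P238380, at -1.22 to -0.29.

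Other genes of the same pathways were followed in 9 lists, each gene by its brightest probe, and no list gene passed in any comparison between groups. Of 25 other p53 targets 21 were measured, of which 16 averaged lower and 5 higher with TAT (55% of 12064 named genes were lower), and 12 lower and 9 higher with gp120 (51.9%). The smallest p with TAT was that of TIGAR, a regulator of sugar breakdown, at -0.79 ± 0.41 (SE), with an unadjusted p of 0.0872 and an adjusted p of 1 in limma. With gp120 it was that of DDB2, a DNA damage sensor, at 0.56 ± 0.21, with an unadjusted p of 0.0318 and an adjusted p of 0.966 in limma. Of the 21, 3 were above both controls on all 3 gp120 arrays, DDB2 among them (5.4% of all named genes were). GADD45A was the 1 that lay below both (7.54%). DDB2 was 0.52 lower with TAT than with gp120 (difference -0.52 ± 0.19). Of 10 measured genes among p53 and its regulators, 4 were lower and 6 higher in both comparisons.

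In the death machinery, of 5 other pro-death BCL2 proteins 2 were lower with TAT and 4 with gp120, and BAK1, the partner of BAX, differed by 0.02 and 0.21. Of 3 other survival proteins 1 was lower in each, and MCL1 differed by 0.20 and 0.34. Of 8 measured death receptor genes 4 were lower with TAT and 2 with gp120. Of 5 caspases 2 were lower with TAT and 3 with gp120. Of 5 mitochondrial death proteins 3 and 4 were lower. DIABLO, which frees caspases from their inhibitors, was below both controls on all 6 treated arrays (3.07% of all probes were). The amounts were small, -0.25 and -0.15. Of 4 inhibitors of apoptosis 3 were lower in each. Of 15 cyclins and partners of p21 5 were lower with TAT and 7 with gp120. CDKN1B, the p21 relative p27, was above both controls on all 6 treated arrays (1.74% of all probes were). Its differences were 0.44 ± 0.24 (SE) and 0.28 ± 0.24, without passing.

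Between letters, 13.6% of all named genes passed. By list it was 2 of 10 among p53 and its regulators, 1 of 3 other survival proteins and 1 of 8 death receptor genes. It was 2 of 4 inhibitors of apoptosis and 3 of 15 cyclins and partners of p21. Of 5 other pro-death BCL2 proteins, 5 caspases and 5 mitochondrial death proteins, 0 passed. Among other p53 targets 4 of 21 passed: GDF15, a stress cytokine, was lower in B by -1.67 and in C by -1.84 (adjusted p for letters = 0.00691 in limma), PMAIP1, the death activator NOXA, by -1.08 and -1.04 (0.0184), TP53I3 by -1.80 in C (0.0178) and PLK3 by -1.43 in C (0.0411). The survival gene BCL2A1 was lower in B by -2.18 and in C by -2.58 (adjusted p = 0.00236 in limma). The caspase inhibitor BIRC3 was lower by -1.70 and -1.56 (0.00464 in limma). BIRC5, another listed inhibitor of apoptosis, was higher by 1.44 and 1.57 (0.0296 in limma). The death ligand TNFSF10 was lower by -1.67 and -1.42 (0.02). The cell cycle genes split, with CCND1 lower by -1.41 and -1.29 (0.00962), CCND2 lower by -1.55 and -1.50 (0.0182) and CCNA2 higher by 1.64 and 1.31 (0.0191 in limma). The kinases CHEK1 and ATM, which act upstream of p53, were higher in C by 1.1 and 0.95 (0.0222 and 0.0429 in limma).

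Among the members themselves, the main probes of MDM2 and BCL2L1 had the highest correlation over the 8 arrays, at 0.833, and FAS and BCL2L1 the lowest, at -0.717. All arrays share 1 slide, and letters, row and scan are shared by both genes of a pair. The named genes most like each member over the 8 arrays were CXCL8 and IL1RN for BCL2L1 (r = 0.99 and 0.989), EIF5 and GSK3B for MDM2 (0.987 and 0.986) and FGFR2 and TGFB3 for FAS (0.984 and 0.983). For ZMAT3 they were GPR137B and PSMA6 (0.967 and 0.962), for BCL2 RPGRIP1L and SLC30A4 (0.954 and 0.949), and for BAX NIBAN2 and HNRNPA0 (0.97 and 0.968). For APAF1 they were MALT1 and TXNDC17 (0.976 and 0.958), for TNFRSF10D GAS2L3 and PABPC1 (0.963 and 0.962), and for the 3′ probe of CDKN1A ATP5MG and CDC34 (0.974 and 0.964). These are the highest among all named genes over 8 arrays and are given as a description.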

How the data were processed

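RNA of 8 samples was read on 8 arrays of 1 Agilent bovine slide. Intensity values in the scanner files come from the authors' run of Agilent Feature Extraction 11.5.1.1, per the file headers, which also give the build HGSC Btau_3.1. The software subtracted background on each array and did not scale between arrays. The authors also deposited a table of log2 values by gene name, whose making is not given in the sources. Medians of its columns were -3.26, -3.21 and -3.25 for TAT A, B and C, -3.25, -3.18 and -3.33 for gp120 A, B and C, and -3.2 and -3.3 for control A and B. Shifted by 1 constant for each array, 98% and 97.8% of its single-probe values for gp120 B and C lay within 0.02 of the log2 scanner values, and 8.48% to 15.2% for the others. No centring per gene was found, its direction is that of the scanner values, and its scaling is unknown, so it was used only as another setting.

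Levels were log2 of the processed signal less the 75th percentile of the same array. Left out were control spots and, on each array, 4 to 37 outlier spots. Spots of 1 probe were averaged. A probe was kept where 1 group or more had it well above background throughout (31546 of 51282, without missing values). Groups were compared probe by probe in 1 limma 3.58.1 model of the 8 arrays without a block (R 4.3.3, lmFit, eBayes, Benjamini-Hochberg, two-sided, threshold 0.05), and letters by a moderated F test with the group in the fit. Python 3.11.15 and matplotlib 3.10.9 drew the figures. The steps were tested on simulated data. The median 95% half-width was 0.76 for a protein against control, and the number of arrays limits the precision.

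Same-letter arrays of different groups deviated together at r = 0.323 to 0.703 in 7 pairs, against -0.592 to 0.403 in 14 pairs of different letters. The pairing comes from the letters in the titles. Named list genes are among the up to 4 per list with the smallest unadjusted p in a comparison or between letters, of which some are not reported here, and the most alike genes are the 2 with the highest r per member. Members and lists were chosen with earlier results of these data known.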

Additional observations from a re-analysis of the deposited data

Results flagged for a closer look

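BAX A_73_P036793 had opposite signs in the pairs of letter A and of letter B. Protein minus control was 0.99 (TAT) and 1.13 (gp120) in the letter A pairs and -0.64 and -0.08 in the letter B pairs. The mean of the A pairs minus that of the B pairs was 1.42. For TNFRSF10D A_73_P209752 the A pairs were at 0.18 and 0.18 and the B pairs at -0.35 and -0.73, and the same value was 0.72. Both drew attention because every A pair moved one way and every B pair the other. The pairs of 1 letter share a control array, and the difference was not tested. Such opposite signs occurred in 24% of all tested probes and in 2 of 19 member probes.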

How the results depend on the processing

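The counts of 0 probes past the adjusted p in limma for TAT minus control, gp120 minus control and TAT minus gp120 held under normexp, quantile normalization, no filter, the letter, scan and row blocks, within scan 2, within row 1, 1 probe per gene and without the letter A arrays. The deposited value table gave 4, 3 and 15, none a member. Leaving out 1 array gave 0 to 2, 0 to 1 and 0, with 2 and 1 without control A and 1 and 1 without control B. The counts for letters moved more: 1953 probes and 3 members without the filter, 1555 and 1 with the scan block, 179 and 0 with the row block, 132 and 0 within scan 2, 2157 genes with 1 probe per gene, 1529 in the deposited table, and 1021 to 2464 probes and 1 to 5 members when 1 array was left out. The cause was not tested. The counts of member probes below 0, recomputed under every setting with all 19 probes by a choice made after seeing the data, were 13 to 17 for TAT and 12 to 17 for gp120. The replicate block changed no call, but turned BAX for TAT to 0.16, and with the scan block to 0.14. The deposited table holds 1 value per gene name, so for genes with several probes it does not give the main probe. In TAT A it has APAF1 at -3.49, against -1.82 and -4.79 for the 2 probes. CDKN1A is at 2.70 there, against 5.03 and -0.32. Its turns of sign for such genes therefore set unlike measures side by side. Between C and A, CDKN1A was at -1.38 in that table, against -0.001 by its main probe. No lead difference between groups passed the threshold anywhere, and signs turned as follows. For TAT minus control, BAX was at 0.66 with the row block, 0.78 within row 1 and 0.045 in the deposited table, FAS at -0.70, -0.59 (within row 1) and -0.23 (without letter A), BCL2L1 at 0.21 and 0.26 (within row 1), MDM2 at 0.081 with the row block and TNFRSF10D at 0.20 without letter A. For gp120 minus control, BCL2L1 was at 0.10 with the row block and 0.054 with the scan block, within scan 2 and within row 1, BAX at -0.17 and CDKN1A at 0.087 without letter A, and APAF1 at 0.18 in the deposited table. For TAT minus gp120, the scan block and scan 2 alone gave -0.068 for BCL2, -0.25 for APAF1, -0.52 for MDM2 and -0.23 for BCL2L1. Row 1 alone gave -0.22 for TNFRSF10D, -0.31 for APAF1 and -0.22 for MDM2. The letter and scan blocks together gave -0.11 for BCL2, -0.24 for APAF1, 0.045 for CDKN1A and -0.13 for MDM2. The deposited table gave 0.18 for ZMAT3, -0.28 for APAF1 and 0.19 for CDKN1A, and normexp -0.058 for APAF1. Between letters B and A, BCL2 was at 0.10 (scan block), 0.35 (row block) and 0.21 (scan 2), BAX at 0.43 (row block), CDKN1A at 0.001 (normexp), and TNFRSF10D at 0.42 and APAF1 at 0.091 in the deposited table. Between C and A, BCL2 was at 0.024 (scan block) and 0.34 (row block), TNFRSF10D at 0.10 (scan block), 0.14 (scan 2) and 0.69 (deposited table), APAF1 at 0.018 (quantile), 0.12 (scan block and deposited table) and 0.15 (scan 2), BAX at 0.31 (row block), and CDKN1A at 0 (normexp) and 0.041 (quantile). Leaving out 1 array gave, for TAT minus control, BAX -0.45 to 0.17, FAS -0.62 to 1.03 and TNFRSF10D -1.035 to 0.028, for gp120 minus control FAS -1.04 to 0.61 and CDKN1A -0.40 to 0.046, and for TAT minus gp120 ZMAT3 -0.24 to 0.043, APAF1 -0.12 to 0.14, FAS -0.087 to 0.97 and BCL2L1 -0.10 to 0.29. For B minus A it gave BCL2 -0.40 to 0.17 and CDKN1A -0.20 to 0.061, and for C minus A BCL2 -0.42 to 0.024, TNFRSF10D -0.65 to 0.10, APAF1 -0.20 to 0.12 and CDKN1A -0.12 to 0.083. Where 1 array was left out of the controls, the lone control is assumed to vary like the other groups. In these data 2 controls, 1 slide and rows and scans that run with letters and proteins limit every comparison.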
